A study of Mus musculus with 12 samples.

Results

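The genes described are those of the mouse Fc gamma receptors and their partners, 6 in all, chosen by symbol from the 52636 genes listed in each of the deposited count tables. They comprise the activating receptors Fcgr1, Fcgr3 and Fcgr4, their shared signalling chain Fcer1g, the inhibitory receptor Fcgr2b, and Fcgrt, which encodes the heavy chain of the neonatal Fc receptor FcRn. Neutrophils and monocytes were isolated from the bone marrow of adult wild-type C57BL/6 J mice with a commercial kit for each (EasySep neutrophil enrichment and monocyte isolation), a step meant to remove other marrow cells, and the monocytes were kept in culture with M-CSF (10 ng/ml) over 3 days before use (labelled monocyte/macrophage, here macrophages). Either cell type was then kept for 4 h in medium with 1 nM CGRP, a neuropeptide of sensory neurons, or with saline (PBS) as the control, with 3 libraries in each of the 4 groups and 12 in all. Neutrophils were treated fresh and in another medium than macrophages, so that cell type, culture time and medium cannot be told apart. The labels do not say whether the libraries of a group came from separate mice, and p-values measure the spread between these libraries.

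Total counts per library ranged from 2719556 to 3631989 in neutrophils with PBS, from 2196558 to 3270388 in neutrophils with CGRP, from 2536415 to 3477069 in macrophages with PBS and from 2002559 to 3259073 in macrophages with CGRP. A count of 3, taken as the floor, corresponds to between 0.826 and 1.50 counts per 1000000 (CPM), and such floors cover counting error only. Levels are given as CPM scaled by TMM over the 12 libraries. The labelled cell types carried their markers. The 13 neutrophil markers summed to between 160242 and 239290 CPM in the neutrophil libraries and to between 305 and 447 CPM in the macrophage libraries, with S100a8 as the most abundant. The 10 macrophage markers summed to between 41840 and 59202 CPM in the macrophage libraries and to between 15917 and 25752 CPM in the neutrophil libraries, where nearly all of it was Lyz2, a lysozyme gene that neutrophils also express. The neutrophil libraries also held markers of other marrow cells, described below beside the results they move with.

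Fc gamma receptors bind the constant part of IgG and let myeloid cells take up antibody-coated targets. The activating receptors have no signalling motif of their own in the ligand-binding chain. They pass the signal through the FcR gamma chain encoded by Fcer1g, whose ITAM motif is phosphorylated by Src family kinases and then recruits the kinase Syk. Fcgr2b carries an ITIM in its own tail, which recruits inositol phosphatases such as SHIP1 (Inpp5d) and counters the activating signal. It is also the classical Fc gamma receptor of B cells. CGRP acts through a receptor made of CALCRL and RAMP1, which raises cAMP. FcRn sits in endosomes with beta-2 microglobulin (B2m) and returns IgG and albumin to the cell surface instead of letting them be degraded.

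On GRCm38, 4 of the 6 genes lie on chromosome 1 within 275749 bases. Fcgr2b lies at chr1:170958617-170976547 on the minus strand, Fcgr4 at chr1:171018920-171029761 on the plus strand, Fcgr3 at chr1:171051174-171064935 on the minus strand and Fcer1g at chr1:171229572-171234365 on the minus strand. Fcgr1 lies apart at chr3:96282909-96293969, and Fcgrt at chr7:45092990-45103851, both on the minus strand. All are annotated as protein-coding. Because reads came from the 3′ ends of transcripts, sequence shared between genes was measured there too. Of the 31-base stretches in the last 500 bases of their transcripts, Fcgr2b shared 5.1% with other genes, Fcgr3 0.521% and Fcgr4 3.62%, and the other 3 genes shared none. Over whole transcripts, 12.6% of the stretches of Fcgr2b were found in any other gene, and 6.42% were found in Fcgr3, its top partner. For Fcgr3, 14.3% were found in any other gene and 14.3% in Fcgr2b. A small part of their reads could therefore be split between them. Annotated genes that overlap a member were at 0 counts, except Gm26110 within Fcgr4, which reached at most 3 counts in a library.

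The promoters of the 4 genes that rose with CGRP in macrophages are shown with that of Fcgr1, which did not pass the test, since members that move together can be compared at their starts. Each run covers 250 bases before to 50 after the RefSeq start site (GRCm38.p6), 5′ to 3′ on the strand of the gene, and capitals mark matches to the motifs named below. Of the 2 RefSeq starts of Fcgr3, the first listed is shown, and the other holds the same motif matches at a shifted position.
Fcgr2b (chr1:170976022-170976321, minus strand): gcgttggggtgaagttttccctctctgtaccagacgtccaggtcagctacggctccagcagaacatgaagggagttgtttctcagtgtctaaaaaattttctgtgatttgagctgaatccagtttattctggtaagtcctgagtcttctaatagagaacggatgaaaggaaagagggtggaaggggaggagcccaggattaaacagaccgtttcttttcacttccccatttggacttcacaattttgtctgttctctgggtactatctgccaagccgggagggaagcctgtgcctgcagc
Fcgr3 (chr1:171059354-171059653, minus strand): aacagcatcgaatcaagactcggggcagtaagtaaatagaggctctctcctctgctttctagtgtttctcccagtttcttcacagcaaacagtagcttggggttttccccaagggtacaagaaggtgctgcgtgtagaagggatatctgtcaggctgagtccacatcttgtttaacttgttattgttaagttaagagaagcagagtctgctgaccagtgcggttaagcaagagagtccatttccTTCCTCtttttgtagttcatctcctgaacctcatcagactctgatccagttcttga
Fcgr4 (chr1:171018676-171018975, plus strand): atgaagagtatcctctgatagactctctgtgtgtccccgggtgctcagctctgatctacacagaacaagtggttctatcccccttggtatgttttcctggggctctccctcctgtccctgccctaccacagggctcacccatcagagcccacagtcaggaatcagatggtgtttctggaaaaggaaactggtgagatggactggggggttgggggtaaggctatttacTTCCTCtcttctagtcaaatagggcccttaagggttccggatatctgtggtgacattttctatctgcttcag
Fcgrt (chr7:45103773-45104072, minus strand): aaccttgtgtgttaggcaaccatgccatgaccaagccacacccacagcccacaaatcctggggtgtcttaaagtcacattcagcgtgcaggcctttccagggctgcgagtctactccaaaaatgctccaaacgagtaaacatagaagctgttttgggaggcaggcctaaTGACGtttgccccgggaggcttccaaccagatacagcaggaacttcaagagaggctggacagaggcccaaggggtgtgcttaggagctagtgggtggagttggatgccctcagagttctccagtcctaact
Fcgr1 (chr3:96293920-96294219, minus strand): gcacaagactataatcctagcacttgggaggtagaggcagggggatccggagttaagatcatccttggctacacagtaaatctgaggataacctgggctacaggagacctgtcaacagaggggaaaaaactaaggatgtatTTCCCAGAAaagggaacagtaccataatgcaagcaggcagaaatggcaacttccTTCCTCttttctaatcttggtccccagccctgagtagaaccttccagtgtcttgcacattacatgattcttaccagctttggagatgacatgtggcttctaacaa

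Both strands were searched for TGACGTCA, the cAMP response element, for TGACG, its shorter form contained in it, for TTCNNNGAA, the GAS element bound by STAT proteins, and for GAGGAA, the core bound by PU.1 (TTCCTC on the other strand). The shorter cAMP form was present in Fcgrt at -81 and in none of the other members, against 20.8% of 32851 promoters of the same length. TGACGTCA was in none of the 6, against 1.79% of all promoters. A GAS element was present in Fcgr1 at -109, against 8.30% of all promoters. The PU.1 core was present in Fcgr1 at -55, in Fcgr3 at -6 and in Fcgr4 at -22, against 28.3% of all promoters. None of these letters occurred in the windows of Fcgr2b or Fcer1g. These are matches of letters, and binding was not measured.

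Without CGRP, macrophages and neutrophils differed most in Fcgr1 and Fcgrt. Between macrophages and neutrophils with PBS, 67.9% of the 10694 genes tested passed an adjusted p of 0.05 (32.5% higher and 35.4% lower in macrophages). For 70.5% of the genes tested the libraries of the cell types did not overlap. Of the 6 members, 5 were higher in macrophages, none was lower, and Fcgr3 did not pass the test. Against that background, the count says little and the sizes say more. The median log2 difference over the members was 0.72, against -0.03 over all genes tested.

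Fcgr1, the high-affinity IgG receptor, stood at 12.3, 9.21 and 14.1 CPM in the neutrophil libraries with PBS and at 171, 162 and 161 CPM in the macrophage libraries with PBS. The groups lay far apart, and the macrophage level was 14.0-fold higher (log2 difference 3.81, SE 0.21, adjusted p = 1.94e-13 by limma-voom). The neutrophil values rest on between 22 and 39 counts per library over both treatments. Fcgrt stood at 13.6, 19.3 and 20.5 CPM in neutrophils and at 80.0, 85.4 and 133 CPM in macrophages, with no overlap and with macrophage replicate 3 above the other macrophage libraries. It was 5.46-fold higher in macrophages (log2 difference 2.45, SE 0.24, adjusted p = 3.83e-09).

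The remaining members differed less. Fcgr2b was 1.79-fold higher in macrophages (log2 difference 0.84, SE 0.11, adjusted p = 6.05e-07), Fcgr4 1.52-fold (0.60, SE 0.12, adjusted p = 0.000118) and Fcer1g 1.28-fold (0.36, SE 0.09, adjusted p = 0.00201). Fcgr3 was at 1024, 1079 and 930 CPM in neutrophils and at 1076, 1369 and 990 CPM in macrophages, and these ranges overlapped. Its log2 difference was 0.17 (95% CI from -0.08 to 0.42, adjusted p = 0.226), and it passed the test only with scaling by library totals in place of TMM (0.27, adjusted p = 0.0159). B2m, the partner of FcRn, was 1.38-fold higher in macrophages (log2 difference 0.46, SE 0.10, adjusted p = 0.000384).

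The order of the levels was read per kb of exonic length, because genes of different length are compared. In CPM per kb, Fcer1g was first in each of the 4 groups, followed by Fcgr3 and then Fcgr4. Fcer1g reached 3665 ± 271 CPM per kb in neutrophils with PBS (SD, n = 3) and 4692 ± 410 in macrophages with PBS, and Fcgr3 582 ± 43.5 and 660 ± 114. Below Fcgr4, neutrophils with PBS held Fcgr2b, Fcgrt and Fcgr1 in that order (13.4 ± 0.643, 8.48 ± 1.77 and 4.58 ± 0.948 CPM per kb), with no overlap between neighbours. With CGRP, the neutrophil ranges of Fcgr2b and Fcgrt overlapped. Macrophages with PBS held Fcgr1, Fcgrt and Fcgr2b (63.6 ± 2.13, 47.3 ± 13.9 and 24.1 ± 1.13), where the ranges of Fcgr1 and Fcgrt overlapped. With CGRP, Fcgrt (76.9 ± 10.8) and Fcgr1 (67.1 ± 3.89) overlapped again, in the other order, above Fcgr2b (53.1 ± 2.46). The libraries were primed at the 3′ end, where counts need not grow with length, so the places below Fcgr3 depend on the scale. By CPM alone, Fcgr4 was at place 4 in neutrophils with PBS and 3 with CGRP. In macrophages it was at place 5 with PBS and 6, the last, with CGRP. There Fcgr2b came next after Fcgr3 by CPM instead of last. Among all genes detected, Fcer1g ranked between 19 and 26 by mean CPM in the 4 groups, and Fcgr3 between 70 and 107. Fcgr2b moved from rank 1125 in macrophages with PBS to rank 523 with CGRP.

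**Figure D1:**
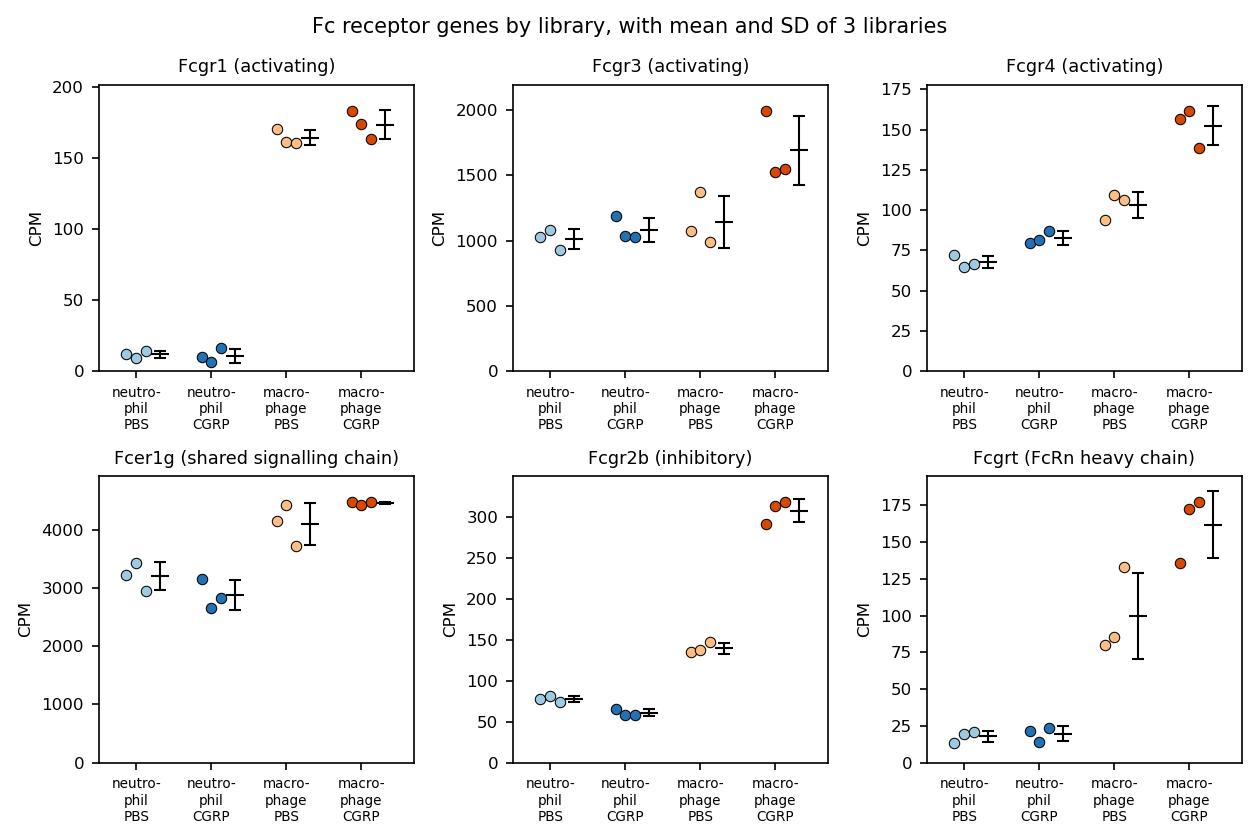
CPM of the 6 genes (y axis, linear, from 0) in each library (points), by cell type and treatment (x axis), with the mean and SD of the 3 libraries of a group beside them. Fcgr2b with CGRP in macrophages (291 to 318 CPM) lies apart from the other groups, while Fcgr1 separates the cell types and not the treatments.

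In macrophages, CGRP raised the inhibitory receptor Fcgr2b most, and Fcgrt, Fcgr3 and Fcgr4 by less. Of the 6 members, 4 rose, none fell, and Fcgr1 and Fcer1g did not pass the test. Over all 9393 genes tested, 7.43% passed (3.46% higher and 3.97% lower). For 24.1% of them the libraries with CGRP and with PBS did not overlap, so a lack of overlap alone says little. The median log2 fold change of the members was 0.57, against 0.00465 over all genes tested. edgeR's quasi-likelihood test and DESeq2 called the same 4 genes. The share of counts from mitochondrial genes also separated these libraries, at 1.48, 1.44 and 1.57% with PBS and 1.23, 1.38 and 1.34% with CGRP, and its part in the macrophage changes was not tested.

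Fcgr2b stood at 135, 138 and 147 CPM in the macrophage libraries with PBS and at 291, 313 and 318 CPM with CGRP. Every library with CGRP was above every library with PBS, with small spread in either group. The rise was 2.20-fold (log2 fold change 1.14, SE 0.12, 95% CI from 0.88 to 1.41, adjusted p = 1.87e-05 by limma-voom). It passed the test in all 6 leave-one-out fits, each made without 1 macrophage library, with log2 fold changes from 1.11 to 1.18 and adjusted p from 5.78e-06 to 0.000712. B cells express this receptor as well. In the macrophage libraries, the B cell genes Cd79a, Ms4a1 and Pax5 were at 0 counts in all 6, and Ebf1 had at most 3 counts. The 7 B cell markers together summed to between 120 and 145 CPM with PBS and to between 103 and 118 CPM with CGRP. Ighm, the most abundant, was lower with CGRP (means of 96.7 and 70.2 CPM), and Cd79b was higher, from between 31.3 and 32.7 CPM to between 37.2 and 39.9 CPM. Their part in the value of Fcgr2b was not tested.

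Among the activating receptors, Fcgr3 was the most abundant and made up between 78.7% and 85.4% of their counts in macrophages. It stood at 1076, 1369 and 990 CPM with PBS and at 1994, 1524 and 1549 CPM with CGRP. The groups did not overlap, with replicate 1 the highest with CGRP and replicate 2 the highest with PBS. The rise was 1.48-fold (log2 fold change 0.57, SE 0.15, adjusted p = 0.0283). The call held in all 10 fits with other settings and no library left out (adjusted p from 0.000835 to 0.0344 by limma-voom, edgeR or DESeq2). With 1 library fewer it was mostly lost. It held in 1 of 6 leave-one-out fits, the one without PBS replicate 2 (0.70, adjusted p = 0.00241). It missed the threshold without PBS replicate 1 (0.53, adjusted p = 0.174), PBS replicate 3 (0.48, 0.0587), CGRP replicate 1 (0.44, 0.0781), CGRP replicate 2 (0.64, 0.0611) or CGRP replicate 3 (0.63, 0.0518).

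Fcgr4, the receptor for mouse IgG2a and IgG2b, stood at 94.1, 110 and 106 CPM with PBS and at 156, 162 and 139 CPM with CGRP, again with no overlap. The rise was 1.48-fold (log2 fold change 0.57, SE 0.14, adjusted p = 0.0162). It missed the threshold without PBS replicate 1 (0.50, adjusted p = 0.131) and without CGRP replicate 2 (0.53, adjusted p = 0.108), and passed in the other 4 leave-one-out fits. Fcgr1 stood at 171, 162 and 161 CPM with PBS and at 184, 174 and 164 CPM with CGRP. These ranges overlapped, and the log2 fold change was 0.08 (95% CI from -0.19 to 0.35, adjusted p = 0.785). Neutrophil markers also moved in these libraries, from between 305 and 399 CPM with PBS to between 424 and 447 CPM with CGRP over the whole list of 13, with S100a8 the most abundant in either group, and their part in the rise of Fcgr3 and Fcgr4 was not tested. The 6 dendritic cell markers, led by Cd209a, summed to between 3.44 and 5.39 CPM with PBS and to between 6.89 and 9.97 CPM with CGRP, but without the top gene of each library the other 5 overlapped (between 1.50 and 2.88 CPM against between 1.51 and 4.80 CPM). The 6 T cell markers, nearly all Cd4, had median sums of 2.01 and 7.21 CPM. The 10 macrophage markers together overlapped between the treatments, but without Lyz2 the other 9 were higher with CGRP, at between 17870 and 18600 CPM with PBS and between 19420 and 23110 CPM with CGRP. The 6 eosinophil markers, led by Ear2, were lower with CGRP, at between 19.5 and 21.8 CPM against between 12.1 and 17.0 CPM. The part of these marker groups was not tested either.

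Fcer1g, the chain on which the activating receptors depend, stood at 4151, 4431 and 3720 CPM with PBS and at 4472, 4432 and 4476 CPM with CGRP. The highest library with PBS and the lowest with CGRP were nearly level. The log2 fold change was 0.13 (95% CI from -0.12 to 0.38, adjusted p = 0.609), so a rise as large as that of Fcgr2b lies outside the interval.

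Fcgrt stood at 80.0, 85.4 and 133 CPM with PBS and at 135, 172 and 177 CPM with CGRP. PBS replicate 3 came close to CGRP replicate 1, with no overlap. The rise was 1.66-fold (log2 fold change 0.73, SE 0.18, adjusted p = 0.0195). It missed the threshold without PBS replicate 1 (0.60, adjusted p = 0.157), without CGRP replicate 2 (0.68, 0.111), without CGRP replicate 3 (0.67, 0.0837) and with scaling by library totals in place of TMM (0.69, 0.0525). Its partner B2m, needed for FcRn to reach the endosome, ranged from 3198 to 3530 CPM with PBS and from 3765 to 4352 CPM with CGRP, and the log2 fold change was 0.26 (SE 0.12, adjusted p = 0.221).

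**Figure D2:**
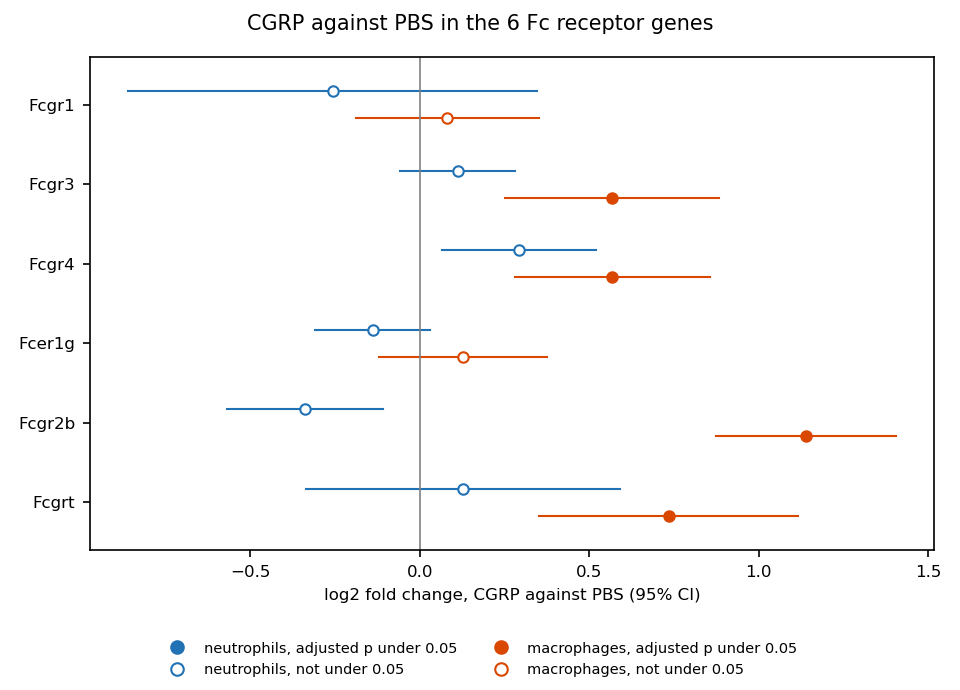
Log2 fold change of CGRP against PBS (x axis, points) with its 95% CI (lines) for the 6 genes (y axis) in neutrophils (blue) and macrophages (orange), where filled points passed an adjusted p of 0.05. The macrophage values of Fcgr2b, Fcgrt, Fcgr3 and Fcgr4 are filled, and the intervals of Fcgr2b in the 2 cell types lie on opposite sides of 0.

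In neutrophils, none of the 6 members passed the test with CGRP. Over all 9819 genes tested, 2.53% passed (1.51% higher and 1.02% lower). For 17.8% of them the libraries with CGRP and with PBS did not overlap, so a lack of overlap alone says little. At an unadjusted p under 0.05, 2 members passed in limma-voom, Fcgr2b on the lower and Fcgr4 on the higher side, and edgeR's quasi-likelihood test and DESeq2 called 0 members at an adjusted p of 0.05. The median log2 fold change over the members was -0.014.

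Fcgr2b stood at 77.5, 81.6 and 74.2 CPM in neutrophils with PBS and at 65.7, 58.1 and 58.7 CPM with CGRP. Every library with CGRP was below every library with PBS. The log2 fold change was -0.34 (SE 0.11, 95% CI from -0.57 to -0.11, adjusted p = 0.131). B cell markers were present in these libraries. The 7 markers summed to between 716 and 750 CPM with PBS and to between 645 and 670 CPM with CGRP, and the most abundant was Ighm, at a mean of 614 and 533 CPM. The sums of the other 6 overlapped between the treatments, at between 105 and 123 CPM with PBS and between 116 and 126 CPM with CGRP, and Cd79b had means of 67.3 and 74.2 CPM. Their part in the value of Fcgr2b was not tested, and in such bulk samples fewer cells of a type and less RNA per cell cannot be told apart.

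Fcgr4 stood at 72.1, 64.8 and 66.7 CPM with PBS and at 79.3, 81.2 and 87.2 CPM with CGRP, with no overlap. The log2 fold change was 0.29 (SE 0.11, 95% CI from 0.07 to 0.52, adjusted p = 0.209). Fcgr3 stood at 1024, 1079 and 930 CPM with PBS and at 1185, 1034 and 1024 CPM with CGRP, and these ranges overlapped (log2 fold change 0.11, 95% CI from -0.06 to 0.28, adjusted p = 0.635). Fcer1g stood at 3227, 3427 and 2955 CPM with PBS and at 3152, 2655 and 2833 CPM with CGRP, also with overlap (-0.14, 95% CI from -0.31 to 0.03, adjusted p = 0.518).

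Fcgr1 and Fcgrt were low in neutrophils with either treatment. Fcgr1 stood at 12.3, 9.21 and 14.1 CPM with PBS and at 9.75, 6.45 and 16.2 CPM with CGRP, which spans the PBS range on both sides (log2 fold change -0.26, 95% CI from -0.86 to 0.35, adjusted p = 0.790). Fcgrt stood at 13.6, 19.3 and 20.5 CPM with PBS and at 21.8, 14.1 and 23.7 CPM with CGRP, again overlapping (0.13, 95% CI from -0.34 to 0.59, adjusted p = 0.880). The intervals of both genes were the widest among the members in neutrophils, and moderate changes within them were not detectable. The neutrophil libraries also held markers of basophils or mast cells (6 genes, between 964 and 1181 CPM, led by Prss34), of eosinophils (6 genes, between 553 and 683 CPM, led by Prg2) and of erythroid cells (6 genes, between 5773 and 7381 CPM, led by Hbb-bs). Of 6 natural killer cell markers, Nkg7 had means of 103 CPM with PBS and 82.8 CPM with CGRP. The other 5 together were near 0, at between 0.360 and 1.90 CPM with PBS and between 1.63 and 2.64 CPM with CGRP, and Ncr1 was at 0 with PBS. Basophils and eosinophils can carry Fc receptors or the FcR gamma chain, and the enrichment kit is meant to remove them. Their part in the neutrophil levels was not tested. The 10 macrophage markers summed to between 20873 and 25752 CPM with PBS and to between 15917 and 20210 CPM with CGRP in these libraries. Without Lyz2, the other 9 overlapped between the treatments (between 1171 and 1222 CPM against between 1061 and 1334 CPM).

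The difference between the cell types in the response to CGRP was tested as an interaction over the 12 libraries. Of 10694 genes, 2.36% passed (1.21% with a higher fold change in macrophages and 1.15% with a lower one). Of the 6 members, Fcgr2b passed. Its log2 fold change was 1.49 higher in macrophages than in neutrophils (SE 0.16, 95% CI from 1.16 to 1.82, adjusted p = 3.80e-06), with all 3 macrophage libraries with CGRP above and all 3 neutrophil libraries with CGRP below their own controls. It passed in all 12 leave-one-out fits. For the other 5 members the difference did not pass the test. It was 0.47 for Fcgr3 (SE 0.17, adjusted p = 0.199), 0.62 for Fcgrt (SE 0.33, adjusted p = 0.455), 0.29 for Fcgr4 (SE 0.17, adjusted p = 0.515), 0.28 for Fcer1g (SE 0.13, adjusted p = 0.370) and 0.35 for Fcgr1 (SE 0.31, adjusted p = 0.705). Fcgr3 passed when macrophage PBS replicate 2 was left out (0.60, adjusted p = 0.0417). The rises of Fcgr3, Fcgr4 and Fcgrt in macrophages were therefore not shown to differ from their values in neutrophils.

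The balance between activating and inhibitory receptors within a library was described by the ratio of the summed counts of Fcgr1, Fcgr3 and Fcgr4 to the counts of Fcgr2b. In neutrophils it was 14.3, 14.1 and 13.6 with PBS and 19.4, 19.3 and 19.2 with CGRP. In macrophages it was 9.97, 11.9 and 8.55 with PBS and 8.02, 5.94 and 5.82 with CGRP. The ratio was thus higher with CGRP in neutrophils and lower with CGRP in macrophages, without overlap between treatments in either cell type. It carries no scaling between libraries, and it was not tested, since the members were grouped with their values known. Fcgr3 supplied most of the numerator, between 90.8% and 93.6% of it in neutrophils. The neutrophil ratios rest on between 134 and 266 counts of Fcgr2b per library.

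The ratio of Fcer1g to the summed activating receptors showed how the shared chain compares with the receptors that need it. In neutrophils it was 2.91, 2.97 and 2.92 with PBS and 2.47, 2.37 and 2.51 with CGRP, and in macrophages 3.09, 2.70 and 2.96 with PBS and 1.92, 2.38 and 2.42 with CGRP. It was lower with CGRP in both cell types, with no overlap, and like the ratio above it was not tested. For either ratio a lack of overlap says little, since 17.8% of genes tested in neutrophils and 24.1% in macrophages did not overlap. Although this ratio was lower with CGRP, Fcer1g had more counts than the 3 receptors together in each of the 12 libraries. The 6 members together took between 0.401% and 0.425% of all counts in neutrophils, between 0.576% and 0.604% in macrophages with PBS and between 0.677% and 0.708% in macrophages with CGRP.

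**Figure D3:**
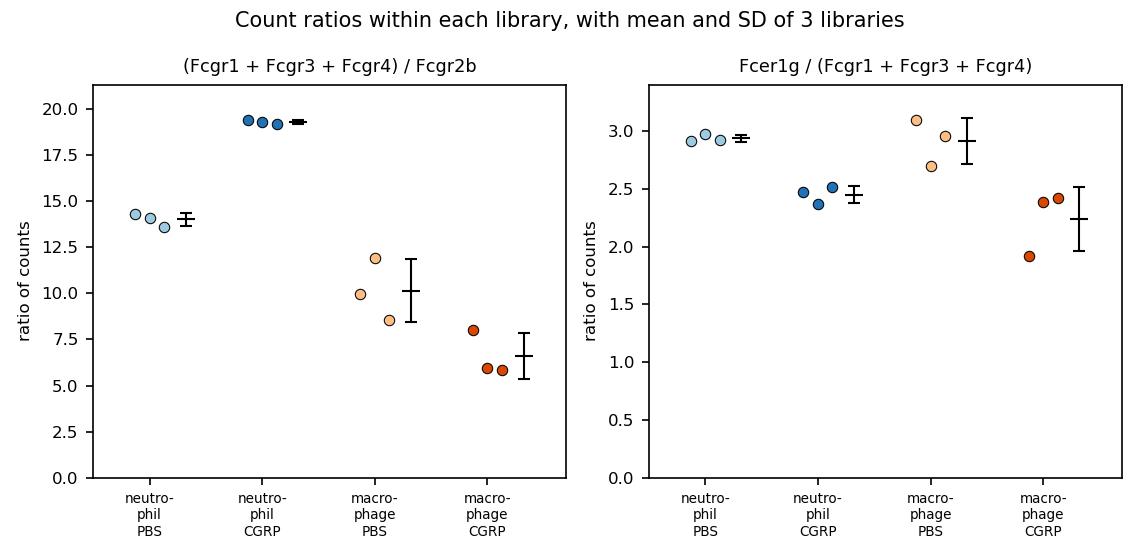
Ratios of counts within each library (points; y axes from 0) by cell type and treatment (x axis), with mean and SD of 3 libraries: the activating receptors over Fcgr2b on the left, and Fcer1g over the activating receptors on the right. The left ratio is above 19 in neutrophils with CGRP and between 5.82 and 8.02 in macrophages with CGRP, while the right ratio is lower with CGRP in both cell types.

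The genes around the receptors were read from lists by symbol, 128 genes in all. In neutrophils 106 could be tested, of which 5 rose and 7 fell with CGRP (11.3% called, against 2.53% of all genes). In macrophages 103 could be tested, of which 9 rose and 17 fell (25.2%, against 7.43%). In the interaction, 3 of 112 had a higher and 5 a lower fold change in macrophages (7.14%, against 2.36% of all genes). Of the 5, Myo10 was too low to be tested in neutrophils. The lists were chosen with earlier results of these data known, so these shares are descriptions and set nothing apart.

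Among receptors that use the FcR gamma chain besides the Fc receptors, Clec4e and Clec4n rose in both cell types. Clec4e (Mincle), which binds mycobacterial glycolipid and the dead-cell protein SAP130, ranged from 112 to 125 CPM in neutrophils with PBS and from 212 to 268 CPM with CGRP, a rise of 1.96-fold (log2 fold change 0.97, SE 0.10, adjusted p = 2.99e-06). In macrophages it ranged from 23.0 to 33.3 CPM with PBS and from 67.6 to 78.0 CPM with CGRP, a rise of 2.45-fold (1.29, SE 0.18, adjusted p = 0.000159). Clec4n (Dectin-2), a receptor for fungal mannans, rose 1.54-fold in neutrophils (0.63, SE 0.13, adjusted p = 0.00651) and 1.88-fold in macrophages (0.91, SE 0.15, adjusted p = 0.00092). The neutrophil call of Clec4n was lost without PBS replicate 2 (0.59, adjusted p = 0.0596).

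Clec4d, which pairs with Mincle, rose 2.22-fold in neutrophils (log2 fold change 1.15, SE 0.09, adjusted p = 1.31e-07), and in macrophages its value was 0.47 (SE 0.14, adjusted p = 0.0614). Its fold change was higher in neutrophils (macrophage minus neutrophil -0.67, SE 0.17, adjusted p = 0.0383), a call that held in 3 of 12 leave-one-out fits. Csf2rb, the common beta chain of the receptors for GM-CSF, IL-3 and IL-5, ranged from 94.1 to 141 CPM in macrophages with PBS and from 312 to 429 CPM with CGRP, a rise of 3.50-fold (1.81, SE 0.17, adjusted p = 3.595e-06). In neutrophils its value was 0.13 (SE 0.09, adjusted p = 0.589), and the difference between the cell types passed the test (1.69, SE 0.20, adjusted p = 1.26e-05). Trem1 was placed on this list too, although it signals through DAP12 (Tyrobp) and not through the FcR gamma chain. It rose 1.74-fold in neutrophils (0.80, SE 0.10, adjusted p = 2.81e-05) and was near the floor in macrophages, at between 1 and 13 counts. Of the 10 genes on the list, 6 could be tested in neutrophils, where 4 rose and none fell, and 5 in macrophages, where 3 rose and none fell. The other signalling chains listed (Tyrobp, Cd247, Cd3e, Cd79a and Cd79b, which carry an ITAM, and Hcst, which does not) gave no call in either cell type by limma-voom, edgeR or DESeq2, with 0 of 4 tested in neutrophils and 0 of 3 in macrophages under an unadjusted p of 0.05.

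Among the kinases that start the signal, Syk ranged from 64.4 to 107 CPM in macrophages with PBS and from 98.4 to 140 CPM with CGRP. The ranges overlapped (log2 fold change 0.51, SE 0.18, adjusted p = 0.115), and Syk passed without PBS replicate 3 (0.68, adjusted p = 0.0286) or CGRP replicate 1 (0.66, adjusted p = 0.0266). In neutrophils, none of 7 kinases was called by limma-voom, edgeR or DESeq2, and 3 had an unadjusted p under 0.05.

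Adaptors between the receptors and their effectors gave calls in macrophages and none in neutrophils. In the interaction, limma-voom called none of 14 (5 at an unadjusted p under 0.05), and edgeR and DESeq2 each called Blnk, lower in macrophages (limma-voom -0.96, SE 0.27, adjusted p = 0.0549). Gab1, a scaffold for PI3K and SHP2, rose 3.85-fold from between 3.16 and 6.47 CPM to between 11.9 and 23.6 CPM (log2 fold change 1.94, SE 0.37, adjusted p = 0.00313), on between 11 and 59 counts per library. Blnk fell (-0.77, SE 0.14, adjusted p = 0.00249), as did Lat2 (-0.71, SE 0.21, adjusted p = 0.0464, with overlapping groups) and Sh3bp2 (-0.58, SE 0.17, adjusted p = 0.0428). The calls of Lat2 and Sh3bp2 held in 2 and in 0 of 6 leave-one-out fits (highest adjusted p 0.222 and 0.195). In neutrophils, 0 of 13 adaptors passed by limma-voom, edgeR or DESeq2, and 1 had an unadjusted p under 0.05.

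Of 14 lipid enzymes tested in either cell type, Pip5k1b fell in neutrophils (log2 fold change -1.05, SE 0.26, adjusted p = 0.0302), and in macrophages Pla2g4a fell and Dgka rose. Pla2g4a, the cytosolic phospholipase A2 that frees arachidonic acid, ranged from 13.5 to 15.8 CPM in macrophages with PBS and from 4.80 to 5.53 CPM with CGRP (-1.43, SE 0.29, adjusted p = 0.00545). Its fold change was lower in macrophages than in neutrophils (-1.41, SE 0.37, adjusted p = 0.0446), a call that held in 2 of 12 leave-one-out fits. The value of Dgka was 1.08 (SE 0.30, adjusted p = 0.0371). The call of Pip5k1b held in 1 and that of Dgka in 0 of 6 leave-one-out fits (adjusted p up to 0.145 and 0.110). DESeq2 called neither (adjusted p = 0.06004 and 0.0631).

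Of the actin genes of the phagocytic cup, 3 of 19 were lower and 0 higher in neutrophils, and 4 of 21 were lower and 1 higher in macrophages, with 16 not called in each cell type. In neutrophils edgeR called 1 of the 19, Asap1. Myo1e, a myosin that links membrane and actin, ranged from 154 to 201 CPM in macrophages with PBS and from 46.8 to 66.5 CPM with CGRP (log2 fold change -1.69, SE 0.17, adjusted p = 6.37e-06). Myo10, a myosin of pseudopods and filopodia, ranged from 37.8 to 59.4 CPM and from 11.9 to 17.6 CPM (-1.71, SE 0.25, adjusted p = 0.000299). Both were too low to be tested in neutrophils, at up to 16 counts per library. Asap1, which regulates Arf proteins, fell in macrophages (-1.12, SE 0.18, adjusted p = 0.00073) and in neutrophils (-0.56, SE 0.10, adjusted p = 0.00312). Actr3, a subunit of the Arp2/3 complex, fell in macrophages (-0.71, SE 0.14, adjusted p = 0.00521), except without CGRP replicate 2 (-0.64, adjusted p = 0.0532). The gene that rose there, named after its value was seen, was Arpc3 of the same complex (0.53, SE 0.13, adjusted p = 0.0178). In neutrophils, Gsn (-0.32, SE 0.08, adjusted p = 0.0424) and Myo1f (-0.30, SE 0.08, adjusted p = 0.0448) fell. Their calls held in 1 of 6 leave-one-out fits each, both without CGRP replicate 1, with adjusted p up to 0.206 in either.

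Phosphatases and adaptors that limit Fc receptor signals were lower with CGRP where they changed, with 6 of 16 lower and none higher in macrophages and 2 of 15 lower and none higher in neutrophils. Ptpn6 (SHP-1), a tyrosine phosphatase recruited by ITIMs, ranged from 223 to 258 CPM in macrophages with PBS and from 107 to 124 CPM with CGRP (log2 fold change -1.05, SE 0.13, adjusted p = 8.37e-05). In neutrophils it ranged from 547 to 638 CPM and from 415 to 468 CPM (-0.42, SE 0.08, adjusted p = 0.00499), a call lost without PBS replicate 1 (-0.36, adjusted p = 0.0825). The fall was larger in macrophages (difference -0.62, SE 0.15, adjusted p = 0.0269), which passed in 6 of 12 leave-one-out fits. Ubash3b (Sts-1), which dephosphorylates Syk, fell in macrophages (-1.78, SE 0.20, adjusted p = 2.80e-05) and in neutrophils (-0.91, SE 0.17, adjusted p = 0.00403). Dok2 fell in macrophages (-1.14, SE 0.15, adjusted p = 0.00011), and its fold change was lower there than in neutrophils (-1.05, SE 0.23, adjusted p = 0.0119), in 10 of 12 leave-one-out fits. Inppl1 (SHIP2) fell in macrophages (-0.94, SE 0.22, adjusted p = 0.014), except without PBS replicate 1 (-0.89, adjusted p = 0.0719) or CGRP replicate 2 (-0.94, adjusted p = 0.0702).

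Inpp5d (SHIP1), the phosphatase through which Fcgr2b acts in mast cells and B cells, gave no call. It ranged from 33.9 to 55.4 CPM in macrophages with PBS and from 32.3 to 52.1 CPM with CGRP (log2 fold change 0.10, SE 0.22, adjusted p = 0.861), and in neutrophils its value was 0.03 (SE 0.11, adjusted p = 0.939). With PBS it was 2.58-fold lower in macrophages than in neutrophils (log2 difference -1.37, SE 0.17, adjusted p = 2.91e-07). Syk was 1.45-fold lower (-0.53, SE 0.16, adjusted p = 0.00454), except without macrophage PBS replicate 2 (-0.34, adjusted p = 0.0546).

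Of 20 genes known to set Fc gamma receptor levels, 3 rose and 1 fell in macrophages, and 1 rose and 1 fell in neutrophils. Ifngr1, a chain of the receptor for interferon-gamma, which induces Fcgr1, ranged from 308 to 340 CPM in macrophages with PBS and from 612 to 654 CPM with CGRP (log2 fold change 0.95, SE 0.12, adjusted p = 8.39e-05). In neutrophils its value was 0.06 (SE 0.08, adjusted p = 0.827), and the difference passed the test (0.90, SE 0.13, adjusted p = 0.000235). Stat3, which acts downstream of the IL-10 receptor, rose in macrophages (0.88, SE 0.16, adjusted p = 0.00246) and differed between the cell types (0.72, SE 0.18, adjusted p = 0.0385), a difference that passed in 2 of 12 leave-one-out fits. Cebpb, a myeloid transcription factor, rose in macrophages (1.20, SE 0.18, adjusted p = 0.000505) and in neutrophils (0.59, SE 0.12, adjusted p = 0.00514). The neutrophil call was lost without PBS replicate 1 (0.47, adjusted p = 0.0788) and in a single fit over the 12 libraries (0.58, adjusted p = 0.105).

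Irf8, a transcription factor of the monocyte lineage, fell in neutrophils, from between 113 and 147 CPM to between 70.4 and 78.9 CPM (log2 fold change -0.83, SE 0.12, adjusted p = 0.000183). Monocytes and B cells express it too. In the same libraries Lyz2 and Ighm were lower with CGRP, while the sums of the other markers of macrophages and of B cells overlapped, as given above, and the part of these cells in the value of Irf8 was not tested. Nr3c1, the glucocorticoid receptor, fell in macrophages (-0.77, SE 0.18, adjusted p = 0.0152), with calls in 3 of 6 leave-one-out fits. It missed the threshold without PBS replicate 1 (-0.74, adjusted p = 0.0786), CGRP replicate 1 (-0.68, 0.0513) or CGRP replicate 2 (-0.77, 0.0806). Of 13 other immunoglobulin receptors and Fc receptor-like genes, 3 could be tested in macrophages, and Fcrl1, an Fc receptor-like gene of B cells, fell from between 18.0 and 20.1 CPM to between 4.80 and 9.06 CPM (-1.47, SE 0.28, adjusted p = 0.00335), beside the B cell markers described with Fcgr2b. In neutrophils 7 could be tested and none was called by limma-voom, edgeR or DESeq2, with 0 under an unadjusted p of 0.05.

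**Figure D4:**
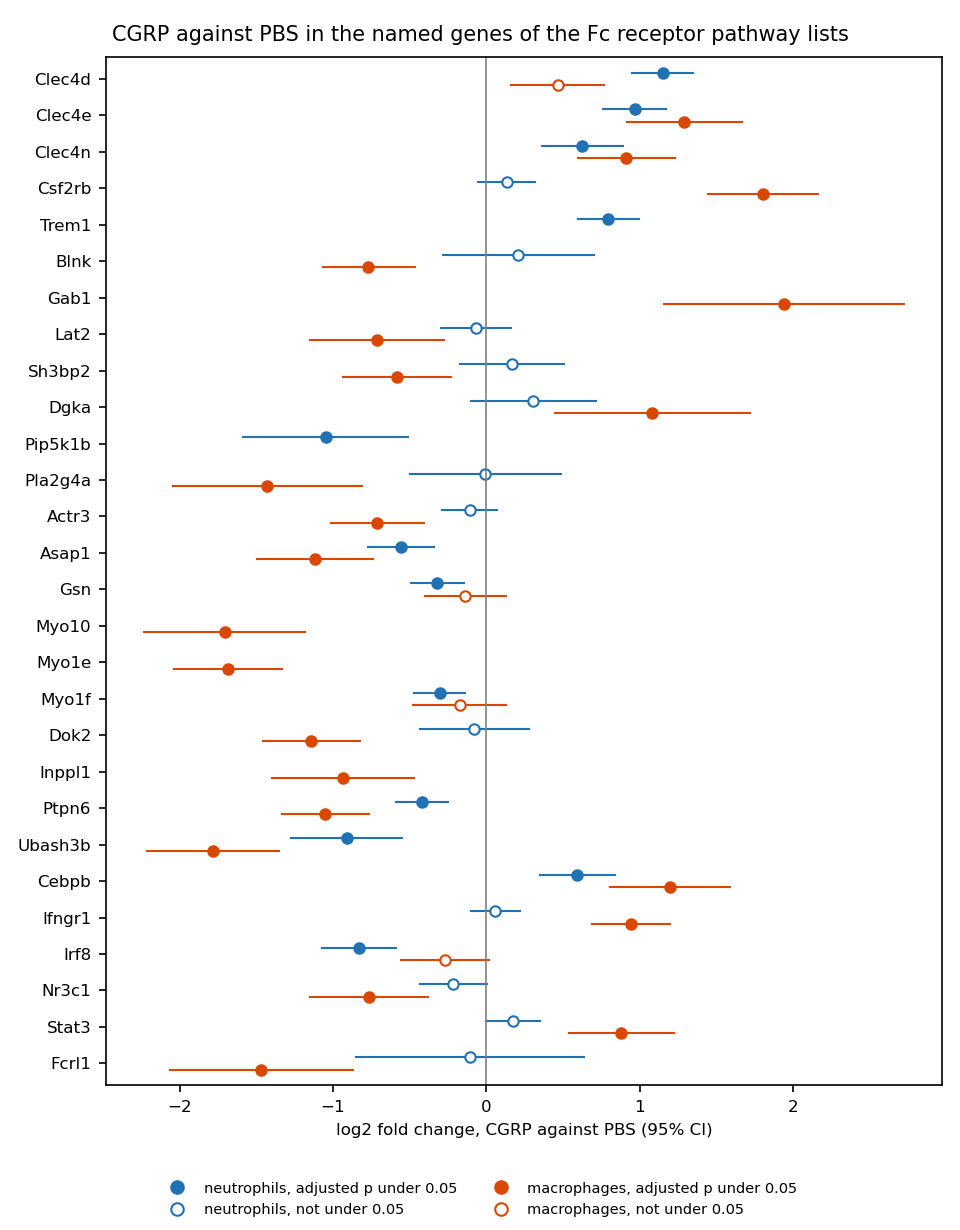
Log2 fold change of CGRP against PBS (x axis, points) with its 95% CI (lines) for the named genes of the lists (y axis), in neutrophils (blue) and macrophages (orange), where filled points passed an adjusted p of 0.05 and a missing point marks a gene too low to be tested. Receptors that use the FcR gamma chain, from Clec4d to Csf2rb, lie to the right of 0, and the actin genes and inhibitory genes shown, from Actr3 to Ubash3b, lie to the left.

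The genes whose log2 CPM followed each member most closely over the 12 libraries were also found, as a description. The 12 points fall into the 2 cell types and share libraries, so these values largely follow cell type. For Fcgr1 they were Basp1, Ms4a7 and Folr2 (Pearson r of 0.993, 0.992 and 0.992), and for Fcgrt Kank2, Ppt2 and Glul (0.993, 0.993 and 0.992). For Fcgr2b they were Ubl3, Tmem159 and Pcyox1 (0.987, 0.987 and 0.983), for Fcgr4 Il10ra, Eva1b and Gcsh (0.978, 0.977 and 0.970), and for Fcer1g Oaz1, Rplp2 and Atp5c1 (0.981, 0.980 and 0.979). For Fcgr3, whose levels overlapped between the cell types with PBS, the closest genes were Ccl6, Clec7a and Cox7a2l (0.945, 0.935 and 0.934). Among the members themselves r ranged from 0.616, between Fcgr1 and Fcgr3, to 0.965, between Fcgr1 and Fcgrt.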

How the data were processed

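The authors deposited raw counts of reads per gene, in 1 table for each cell type, made from dT-primed 3′ libraries with unique molecular identifiers by the nf-core RNA-seq pipeline, run with its option for these identifiers, with STAR and featureCounts on GRCm38. The annotation release and the strand setting are not given in the sources used here. Each table lists 52636 genes, of which 52403 were found in GENCODE vM21. No 2 libraries held identical values. From the counts, limma-voom (limma 3.58.1, edgeR 4.0.16, R 4.3.3) was run with filterByExpr and TMM scaling on the 6 libraries of each cell type, after the study's own choice of test. The interaction and the comparison of the PBS groups used all 12 libraries. P-values were adjusted by Benjamini-Hochberg over all genes tested, and 0.05 was the threshold. The fits were tested on simulated data, but the outcome is not reported here and no result rests on it. Results were recomputed with the quasi-likelihood test of edgeR and with DESeq2 1.42.0, with other scalings, filters and weights, thinned counts or a replicate block, and without each library in turn. The members and gene lists were chosen with earlier results of these data known. Named genes were the 6 members, B2m, Syk, Inpp5d, at most the 4 largest called changes per list and cell type, and the 3 genes most like each member. Some of these are not reported here. Promoter sequences are from RefSeq, and figures were drawn with matplotlib 3.10.9 in Python 3.11.15.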

Additional observations from a re-analysis of the deposited data

Results flagged for a closer look

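The response to CGRP differed between the cell types, by the interaction test in limma-voom, for 8 of the 32 named genes that were tested in each cell type. Of all genes tested in each, 2.71% passed. Most of the named genes were chosen as the called changes of their list in one cell type, so a high share follows from the choice. Each value is the log2 fold change in macrophages minus that in neutrophils. Fcgr2b had 1.49 (adjusted p = 3.80e-06), Csf2rb 1.69 (adjusted p = 1.26e-05) and Ifngr1 0.90 (adjusted p = 0.000235), and all 3 passed in the 12 leave-one-out fits.

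Dok2 had -1.05 (adjusted p = 0.0119) and missed the threshold without neutrophil PBS replicate 1 (0.0506) or neutrophil CGRP replicate 3 (0.0520). Ptpn6 had -0.62 (adjusted p = 0.0269) and passed in 6 of 12. Clec4d had -0.67 (adjusted p = 0.0383) and passed in 3 of 12. Stat3 had 0.72 (adjusted p = 0.0385) and Pla2g4a -1.41 (adjusted p = 0.0446), and each passed in 2 of 12. The highest adjusted p among these fits was 0.0896 for Ptpn6, 0.121 for Clec4d, 0.123 for Stat3 and 0.133 for Pla2g4a. Myo10 had an interaction value of -2.60 (adjusted p = 0.0279, with 7 of 12 leave-one-out fits past the threshold and adjusted p up to 0.125). It entered that fit through its level in macrophages and was too low to be tested in neutrophils, at between 2 and 11 counts per library, so it is not counted above. Groups of 3 libraries are too small for a test of outlying samples.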

How the results depend on the processing

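Over all genes, the number called with CGRP in neutrophils (248) was 137 in a single fit over the 12 libraries and from 138 to 234 in leave-one-out fits. The number in macrophages (698) was 1406 with quality weights, 1050 in a single fit and from 347 to 765 in leave-one-out fits, and the interaction (252) gave 520 with quality weights and from 149 to 328. edgeR gave 253, 735 and 290 and DESeq2 187, 654 and 305. Between the PBS groups, the 7263 calls stayed between 6889 and 7559 when 1 library was left out. Of the members, from 1 to 4 were called in macrophages when a library was left out, 3 with library totals in place of TMM and 4 under the other settings; from 1 to 2 were called in the interaction. In neutrophils, 1 member, Fcer1g, was called without a low-count filter (-0.16, adjusted p = 0.0338) and 0 otherwise.

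The values that changed sign were of genes that did not pass the test. In leave-one-out fits, the neutrophil value of Fcgr1 lay between -0.54 and 0.077 and its interaction between -0.011 and 0.60, and the neutrophil value of Fcgrt lay between -0.059 and 0.38. For Inpp5d the neutrophil value lay between -0.048 and 0.13, the macrophage value between -0.0555 and 0.32, and the interaction between -0.0855 and 0.31, where library totals gave -0.034. The cause was not tested. Pip5k1b in neutrophils also lost its call with library totals (adjusted p = 0.0580) and after thinning (0.0785), and Dgka in macrophages with library totals (0.0511) and without a low-count filter (0.0583). Gsn and Myo1f in neutrophils lost theirs in edgeR, with library totals, after thinning and in a single fit (0.0507 to 0.281), and Sh3bp2 in macrophages without a filter (0.0691). In the interaction, Stat3 was lost with library totals (0.175) and without a filter (0.0535), and Clec4d and Pla2g4a without a filter (0.0593 and 0.0870) and after thinning (0.106 and 0.110). Syk in macrophages passed with quality weights (adjusted p = 0.0116) and in a single fit (0.0433).

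The labels number the replicates of all groups from 1 to 3 without saying that a number pairs libraries. Deviations of same-numbered libraries from their group means had correlations of 0.0421, -0.013 and 0.137 in neutrophils and of 0.0595, -0.179 and 0.273 in macrophages, which does not establish a pairing. With a replicate block, the calls numbered 289 in neutrophils, 1007 in macrophages, 337 in the interaction and 7434 between the PBS groups, with 0, 4, 1 and 5 members. The block moved Myo1f in neutrophils to an adjusted p of 0.0605 and Syk in macrophages to 0.0329. No other call changed among the members, B2m, Syk, Inpp5d and the named genes already called in the same CGRP comparison or interaction. Named genes without a call there were not followed under the block or the other settings. In neutrophils, with totals of 2196558 to 3631989 counts, Fcgr1 and Fcgrt had the widest intervals among the members.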
